A study of Mus musculus with 12 samples.

Results

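The antioxidant and NRF2 target genes described here are *Hmox1*, *Nqo1*, *Gclc*, *Gclm*, *Txnrd1*, *Srxn1*, *Sod1*, *Sod2*, *Cat* and *Gpx1*, 10 of the 23183 gene symbols listed in each library. They were chosen as known NRF2 targets or antioxidant enzymes, by matching the symbol exactly, and all 10 were found. Cortex and hippocampus of male C57BL/6 mice were sequenced 3 months after sham irradiation (Con) or irradiation (IR). The study's methods give a single dose of 10 Gy to the whole brain, in mice bought at 7 weeks of age and acclimatized for 1 week. There were 12 libraries, 3 for each group in each tissue. No transgene or other treatment separates the groups, and both tissues are mixtures of neurons, glia and vascular cells. The values are FPKM, fragment numbers divided by transcript length and scaled per library, and the methods name a geometric normalization. Levels of different genes can thus be set side by side per length. In such bulk samples, fewer cells of a type and less RNA per cell cannot be told apart.

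Ionizing radiation splits water and leaves reactive oxygen species, which cells clear with enzymes. NRF2 (gene *Nfe2l2*) is a transcription factor that KEAP1 normally marks for degradation. When oxidants or electrophiles modify KEAP1, NRF2 accumulates, pairs with a small MAF protein and binds antioxidant response elements near its target genes. BACH1 competes for the same elements. The targets make glutathione, recycle thioredoxin and peroxiredoxin, break down heme and reduce quinones. Superoxide dismutases turn superoxide into hydrogen peroxide, which catalase, glutathione peroxidases and peroxiredoxins remove. In the brain, astrocytes are known for a strong NRF2 response, and neurons rely on them for glutathione precursors.

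The core of the antioxidant response element, TGACNNNGC (N is any base), was searched on both strands of RefSeq promoter windows (GRCm38.p6, 250 bases before to 50 after a start site), to show which members carry these letters near a start. Of the members, 8 matched an entry of the table, with 10 windows in all. The core was in 4 of the 10 windows, in *Srxn1*, *Gclm*, *Sod1* and 1 of 3 windows of *Txnrd1*, and in 12.4% of all 32851 windows. The matches are printed 5′ to 3′ on the minus strand with the core in capitals, and each is a match of letters, not a tested binding site.
Srxn1, chr2:152105542-152105570: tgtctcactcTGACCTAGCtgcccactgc
Gclm, chr3:122245413-122245441: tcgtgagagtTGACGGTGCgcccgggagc
Txnrd1, chr10:82859104-82859132: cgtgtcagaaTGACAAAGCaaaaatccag
Sod1, chr16:90220696-90220724: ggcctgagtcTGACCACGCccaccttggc

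By the steps between low FPKM values, depth within a tissue was 1 to 1.12 relative to Con 1 from that tissue. Depth was not compared between the tissues. Hippocampus markers summed to 101 to 123 FPKM in the hippocampus libraries and 4.31 to 10.6 FPKM in the cortex libraries, and cortex markers to 47.0 to 51.1 FPKM and 190 to 239 FPKM. In the hippocampus, Con 3 lay with the IR libraries on the first principal component (40.8% of the variance), at 4.83 against 4.47 to 17 in IR, whereas Con 1 and Con 2 were at -22.1 and -9.86. By this measure alone the label of Con 3 is in doubt, and whether the label is right was not tested. Every hippocampus difference uses Con 3 as Con unless it is said to be left out. Microglia markers in Con 3, however, summed to 115 FPKM, near Con 1 and Con 2 (118 and 108 FPKM) and above IR (76.6 to 84.1 FPKM). Con 3 was kept as labelled. In the cortex that component (33.7%) separated the groups, at -14.1 to -5.22 in Con and 3.96 to 13.1 in IR. Choroid plexus markers were high in cortex IR 2 (437 FPKM summed), hippocampus Con 2 (1050 FPKM) and hippocampus IR 1 (1642 FPKM), and 4.54 to 64.5 FPKM in the others. The 7 microglia markers all had negative log2 fold changes in both tissues. Summed, they were 109 to 115 FPKM in Con and 74.2 to 106 FPKM in IR in the cortex, and 108 to 118 FPKM and 76.6 to 84.1 FPKM in the hippocampus. The 5 oligodendrocyte markers summed to 968 to 1198 FPKM in cortex Con and 1215 to 1472 FPKM in cortex IR, with 5 positive log2 fold changes. In the hippocampus they summed to 997 to 1211 FPKM in Con and 934 to 1192 FPKM in IR, with 3 of 5 negative (median -0.23). The 4 endothelium markers summed to 48.2 to 58.1 FPKM in Con and 58.3 to 68.9 FPKM in IR in the cortex, and 44.1 to 48.9 FPKM and 53.5 to 55.6 FPKM in the hippocampus. In each tissue 3 of these 4 had positive log2 fold changes and 1 a negative one. The 6 astrocyte markers all had negative log2 fold changes in the hippocampus, with sums of 443 to 538 FPKM in Con and 426 to 456 FPKM in IR. The 5 meningeal fibroblast markers all had positive log2 fold changes in the hippocampus (summed 13.1 to 27.4 FPKM in Con and 24.1 to 35.2 FPKM in IR) and negative ones in the cortex (15.9 to 20.6 FPKM and 13.1 to 18.4 FPKM). The 4 border macrophage markers were low. Their sum was lower in IR in the cortex (1.78 to 1.94 FPKM in Con, 1.09 to 1.48 FPKM in IR) and higher in IR in the hippocampus (0.757 to 1.23 FPKM and 1.52 to 2.11 FPKM). The part of these cells in any value below was not tested.

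At 3 months after irradiation none of the 10 genes passed an adjusted p of 0.05 in either tissue. The lowest adjusted p belonged to *Txnrd1* in the cortex (0.199) and to *Sod1* in the hippocampus (0.350). Of all genes tested, 102 of 14065 cortex genes (0.725%) and 4 of 14043 hippocampus genes (0.0285%) passed. At the study's criterion of a 1.5-fold change with an unadjusted p under 0.05, 0 of 10 members passed in either tissue, against 0.483% (cortex) and 0.527% (hippocampus) of all genes. An unadjusted p under 0.05 was reached by 1 of 10 members in each tissue, against 14.1% and 13.9% of all genes. The Con and IR values did not overlap for 2 of 10 members in each tissue, against 20.3% and 19.8% of all genes, so these shares were near the background. The median log2 fold change of the members was -0.00906 for cortex and -0.00317 for hippocampus, beside 0.00162 and -0.00997 for all tested genes.

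**Figure D1:**
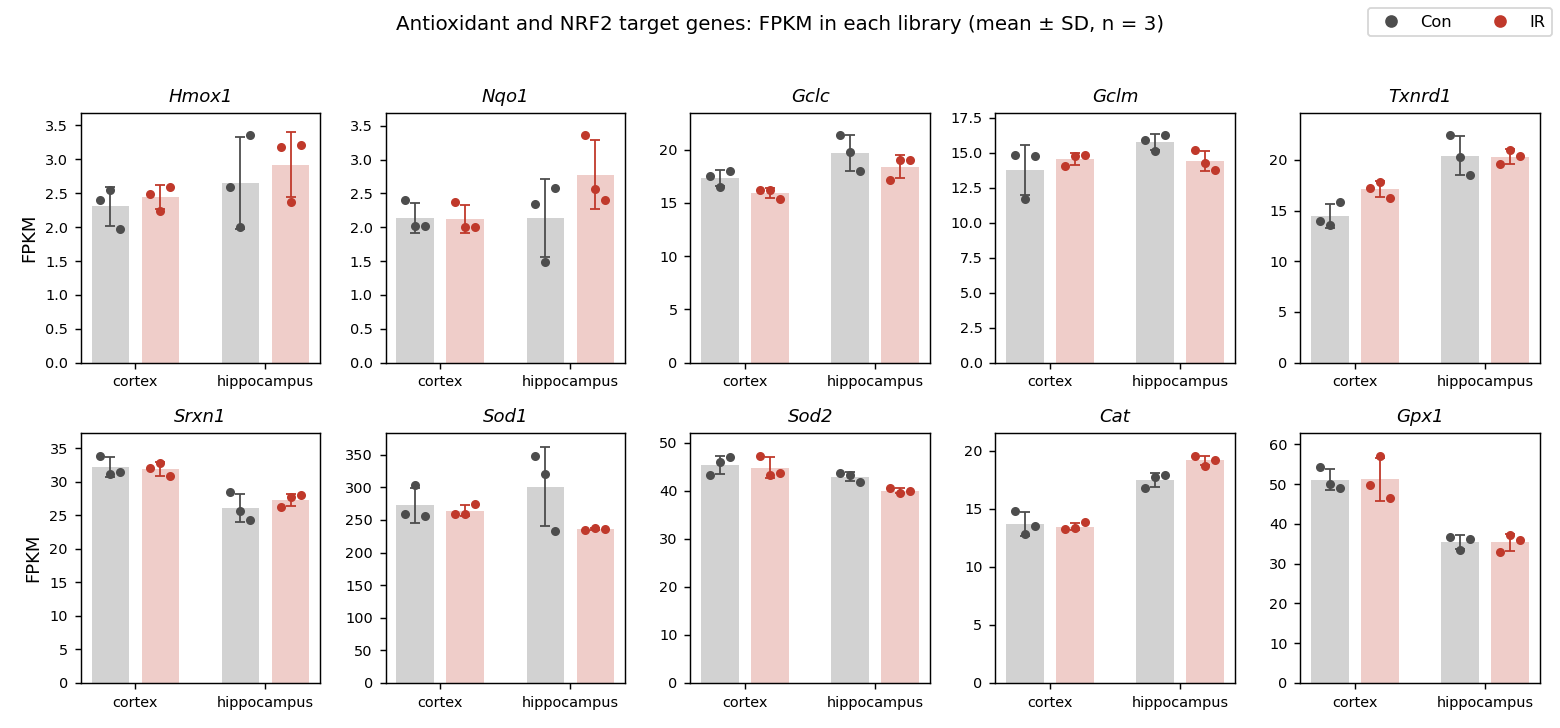
FPKM of each of the 10 genes in cortex and hippocampus, with Con in grey and IR in red; points are libraries 1 to 3 from left to right, bars are means and error bars SD (n = 3). In most panels the Con and IR points overlap; in hippocampus Sod1, Con 1 and Con 2 lie at 349 and 321 FPKM and the other 4 libraries between 233 and 237 FPKM.

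The intervals show how large a change these 3 libraries a group could have missed. On the log2(FPKM + 1) scale, which understates changes of low genes such as *Hmox1* and *Nqo1*, the cortex 95% intervals of all 10 members lay within a 1.5-fold change in either direction. In the hippocampus 8 lay within 1.5-fold. The exceptions to the 1.5-fold limit on that scale were *Sod1*, whose interval reached a log2 fold change of -0.65, and *Nqo1*, whose interval reached 0.64. The coefficient of variation within a group had a median of 5.14% for cortex and 5.46% for hippocampus, and was highest for *Nqo1* in hippocampus Con, at 27.0%.

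**Figure D2:**
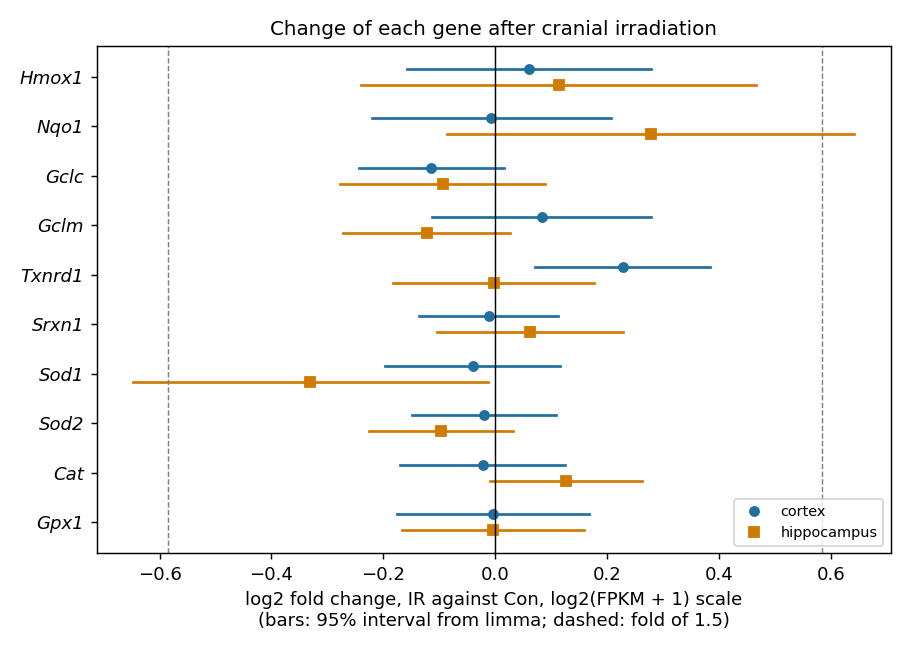
Log2 fold change of IR against Con for each gene on the log2(FPKM + 1) scale, with cortex as blue circles and hippocampus as orange squares; bars are 95% intervals from limma and dashed lines mark a 1.5-fold change. The intervals of cortex Txnrd1 (0.07 to 0.39) and hippocampus Sod1 (-0.65 to -0.01) leave out 0 before adjustment, and all others hold it.

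*Hmox1* and *Nqo1*, often used as readouts of NRF2 activity, were the lowest of the 10. *Hmox1* (chr8:75093621-75100589, plus strand, GRCm38) encodes heme oxygenase 1, which breaks heme down to biliverdin, carbon monoxide and iron. In the cortex *Hmox1* was 2.39, 2.54 and 1.98 FPKM in Con 1 to 3 and 2.49, 2.24 and 2.59 FPKM in IR 1 to 3. The groups overlapped, with a log2 fold change of 0.06 (95% interval -0.16 to 0.28, adjusted p = 0.831). In the hippocampus it was 2.59, 2.00 and 3.35 FPKM in Con and 3.19, 2.36 and 3.21 FPKM in IR, with a log2 fold change of 0.11 (-0.24 to 0.47, adjusted p = 0.748). Its lowest and highest hippocampus values were both in Con, so the spread within the group was wider than the difference. The sign turned without hippocampus Con 2 (log2 fold change -0.02) and without Con 2 and IR 1, the libraries high in choroid plexus markers (-0.07).

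*Nqo1* (chr8:107388225-107403206, minus strand) encodes NAD(P)H quinone dehydrogenase 1, which reduces quinones fully and so avoids reactive semiquinones. In the cortex *Nqo1* was 2.40, 2.01 and 2.01 FPKM in Con and 2.37, 2.01 and 2.00 FPKM in IR, with nearly equal ranges. The log2 fold change there was -0.01 (-0.22 to 0.21, adjusted p = 0.985). In the hippocampus it was 2.34, 1.48 and 2.58 FPKM in Con and 3.36, 2.57 and 2.40 FPKM in IR. Con 2 was the lowest library and IR 1 the highest, and the groups overlapped. The log2 fold change was 0.28 (-0.09 to 0.64, adjusted p = 0.445). It was 0.12 without Con 2, 0.17 without IR 1 and 0.0113 without both, the libraries high in choroid plexus markers.

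*Gclc* and *Gclm* encode the catalytic and modifier subunits of glutamate-cysteine ligase, the first and rate-limiting enzyme of glutathione synthesis. *Gclc* (chr9:77754535-77794485, plus strand) was 17.5, 16.5 and 18.0 FPKM in cortex Con and 16.2, 16.2 and 15.4 FPKM in cortex IR. Every IR value was below every Con value, by a log2 fold change of -0.11 (-0.24 to 0.02, adjusted p = 0.420). In the hippocampus *Gclc* was 21.3, 19.8 and 18.0 FPKM in Con and 17.1, 19.0 and 19.0 FPKM in IR, which overlapped (log2 fold change -0.09, -0.28 to 0.09, adjusted p = 0.599). It was -0.0376 without Con 1, -0.0468 without IR 1 and -0.15 without Con 3.

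*Gclm* (chr3:122245557-122270732, plus strand) was 14.8, 11.7 and 14.8 FPKM in cortex Con and 14.1, 14.7 and 14.9 FPKM in IR, with a log2 fold change of 0.08 (-0.11 to 0.28, adjusted p = 0.718). Con 2 alone was low, and without it the log2 fold change was -0.02. In the hippocampus *Gclm* was 15.9, 15.1 and 16.2 FPKM in Con and 15.2, 14.3 and 13.7 FPKM in IR, with only the lowest Con and the highest IR value overlapping (log2 fold change -0.12, -0.27 to 0.03, adjusted p = 0.421). The annotation puts *Gm17494* on the opposite strand and the pseudogene *Gm6061* on the same strand within the bounds of *Gclm*, and whether the counting used strand is not stated, so its values are uncertain to that extent.

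*Txnrd1* (chr10:82833951-82897712, plus strand) encodes the cytosolic thioredoxin reductase, a selenoprotein that uses NADPH to keep thioredoxin reduced. In the cortex *Txnrd1* was 14.0, 13.6 and 15.9 FPKM in Con and 17.3, 17.9 and 16.2 FPKM in IR, and the groups did not overlap. The means were 14.5 ± 1.21 and 17.1 ± 0.813 FPKM (SD, n = 3), which gave a log2 fold change of 0.23 (SE 0.07, 95% interval 0.07 to 0.39). The unadjusted p was 0.00903 and the adjusted p 0.199, so the difference did not pass the correction over all genes. It was positive when any of the 6 libraries was left out (0.19 to 0.29), and 0.20 without IR 2, the cortex library high in choroid plexus markers (adjusted p = 0.411). In the hippocampus *Txnrd1* was 22.4, 20.3 and 18.6 FPKM in Con and 19.6, 21.0 and 20.4 FPKM in IR, with a log2 fold change of -0.00 (-0.18 to 0.18, adjusted p = 0.991). The difference between the changes in the tissues was -0.23 on the log2 scale (-0.46 to 0.00, adjusted p = 0.484). *Eid3* on the same strand and *Gm38560* and *Gm47073* on the other overlap *Txnrd1* in the annotation.

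*Srxn1* (chr2:152105516-152111376, plus strand) encodes sulfiredoxin, which restores peroxiredoxins that peroxide has overoxidized. It was 33.9, 31.2 and 31.4 FPKM in cortex Con and 32.1, 32.8 and 30.8 FPKM in cortex IR (log2 fold change -0.01, -0.14 to 0.11, adjusted p = 0.95). Hippocampus values were 28.5, 25.7 and 24.4 FPKM in Con and 26.3, 27.7 and 28.0 FPKM in IR (0.06, -0.10 to 0.23, adjusted p = 0.707), with 0.12 without Con 1 and 0.0134 without Con 3. The groups overlapped in both tissues.

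*Sod1* (chr16:90220754-90226329, plus strand) encodes the cytosolic copper-zinc superoxide dismutase and had the highest FPKM of the 10 genes in every group. In the hippocampus *Sod1* was 349, 321 and 233 FPKM in Con 1, Con 2 and Con 3, and 234, 237 and 237 FPKM in IR 1 to 3. Con 1 and Con 2 were high, and Con 3 was just below the lowest IR library. The Con mean was 301 ± 60.3 FPKM and the IR mean 236 ± 1.67 FPKM (SD, n = 3), which gave a log2 fold change of -0.33 (SE 0.14, 95% interval -0.65 to -0.01). The unadjusted p was 0.0434 and the adjusted p 0.350. Without Con 3 the log2 fold change was -0.50 with an adjusted p of 0.0183, but 880 of 13909 genes (6.33%) passed in that comparison. Without Con 1 it was -0.21 (adjusted p = 0.618), without Con 2 it was -0.27 (adjusted p = 0.600), and without Con 2 and IR 1 it was -0.27 (adjusted p = 0.864).

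In the cortex *Sod1* was 259, 304 and 255 FPKM in Con and 260, 259 and 274 FPKM in IR, with Con 2 the highest (log2 fold change -0.04, -0.20 to 0.12, adjusted p = 0.848). The longest coding transcript of *Sod1* has 641 nucleotides. Genes with transcripts of up to 800 nucleotides deviated from the hippocampus mean by a median of 0.12 (log2) in Con 1, 0.03 in Con 2, -0.06 in Con 3, -0.12 in IR 1, 0.05 in IR 2 and -0.02 in IR 3. In the cortex the median was 0.11 in Con 2. The part of transcript length in the *Sod1* values was not tested beyond the correction that follows. With a correction for transcript length the hippocampus log2 fold change of *Sod1* was -0.29 (adjusted p = 0.318). *Scaf4* on the other strand overlaps *Sod1*.

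**Figure D3:**
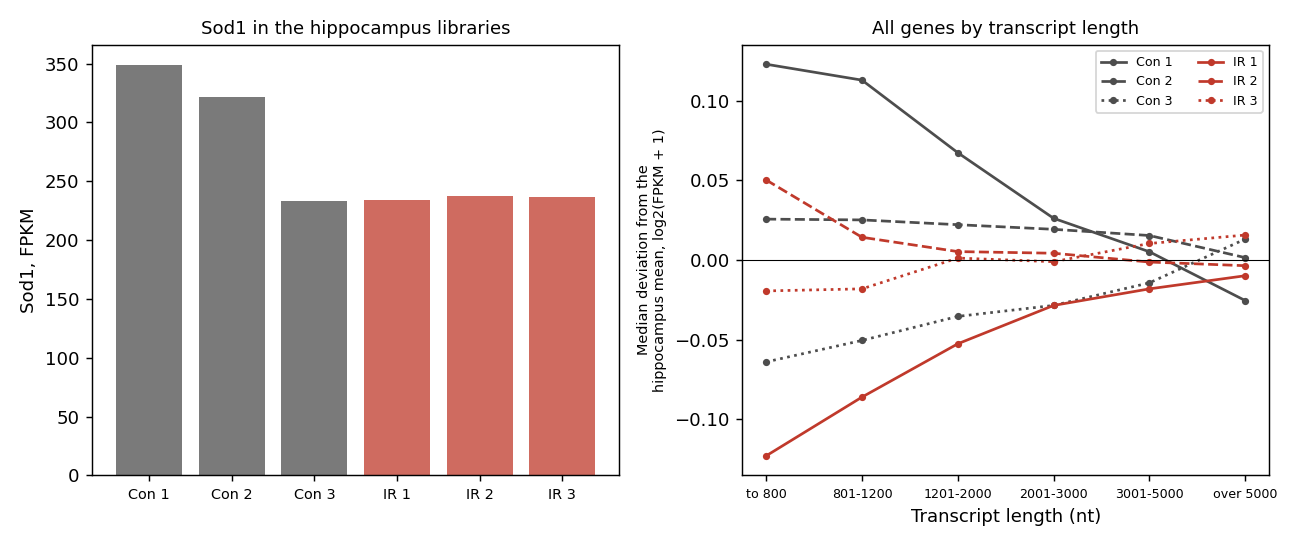
Left, Sod1 in FPKM in the 6 hippocampus libraries (Con grey, IR red). Right, the median deviation of genes from the hippocampus mean on the log2(FPKM + 1) scale, by transcript length. It covers genes with a known transcript length and at least 1 FPKM in every hippocampus library. Con 1 is highest and IR 1 lowest among short transcripts (0.12 and -0.12 up to 800 nucleotides), and Con 3 lies below 0 there.

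*Sod2* (chr17:13006846-13040063, plus strand) encodes the manganese superoxide dismutase of mitochondria. Hippocampus values were 43.6, 43.2 and 41.8 FPKM in Con and 40.6, 39.6 and 39.9 FPKM in IR, without overlap. The spread was small (SD 0.937 and 0.552 FPKM), and so was the difference, with a log2 fold change of -0.10 (-0.23 to 0.03, adjusted p = 0.449). With quantile normalization it was -0.0448 (adjusted p = 0.743). In the cortex *Sod2* was 43.3, 45.9 and 47.0 FPKM in Con and 47.3, 43.4 and 43.6 FPKM in IR, which overlapped (-0.02, -0.15 to 0.11, adjusted p = 0.913).

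*Cat* (chr2:103453849-103485160, minus strand) encodes catalase, the peroxisomal enzyme that splits hydrogen peroxide. In the hippocampus it was 16.8, 17.7 and 17.9 FPKM in Con and 19.6, 18.7 and 19.2 FPKM in IR, with every IR value above every Con value. The means of 17.5 ± 0.587 and 19.2 ± 0.422 FPKM gave a log2 fold change of 0.13 (-0.01 to 0.26, unadjusted p = 0.0643, adjusted p = 0.380 from limma). In the cortex *Cat* was 14.8, 12.8 and 13.5 FPKM in Con and 13.3, 13.3 and 13.8 FPKM in IR (-0.02, -0.17 to 0.12, adjusted p = 0.915). In neither tissue did *Cat* pass the test.

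*Gpx1* (chr9:108338903-108340343, plus strand) encodes a selenium-dependent glutathione peroxidase of the cytosol and mitochondria. Its group means were nearly equal in both tissues. In the cortex it was 54.3, 50.1 and 49.1 FPKM in Con and 49.8, 57.2 and 46.6 FPKM in IR (log2 fold change -0.00, -0.17 to 0.17, adjusted p = 0.990). Hippocampus values were 36.6, 33.4 and 36.3 FPKM in Con and 33.01, 37.2 and 35.9 FPKM in IR (-0.00, -0.17 to 0.16, adjusted p = 0.987).

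Whether the changes differed between the tissues was tested as an interaction over all 12 libraries. Of the 10 members, 0 passed an adjusted p of 0.05 in limma and 0 an unadjusted p of 0.05. Of all genes, 12 of 14459 (0.083%) had an adjusted p under 0.05 and 1500 of 14459 an unadjusted one. The signs of the log2 fold changes were the same in both tissues for 5 of the 10 members. Without hippocampus Con 3 the interaction of *Sod1* was -0.46 with an adjusted p of 0.0297. In that comparison 487 genes passed, against 12 with Con 3 kept, so the *Sod1* call came with many others.

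The tissues themselves differed more than the groups. In Con, 4 of the 10 genes differed between hippocampus and cortex at an adjusted p under 0.05, against 5147 of 14169 genes (36.3%), so this share was near the background too. *Txnrd1* was higher in the hippocampus, at 20.4 ± 1.93 against 14.5 ± 1.21 FPKM (log2 difference 0.47, SE 0.09, adjusted p = 0.00358). *Cat* was higher there too, at 17.5 ± 0.587 against 13.7 ± 1.03 FPKM (0.33, SE 0.08, adjusted p = 0.00934). *Gpx1* was lower in the hippocampus, at 35.4 ± 1.81 against 51.2 ± 2.74 FPKM (-0.52, SE 0.08, adjusted p = 0.000688). *Srxn1* was also lower, at 26.2 ± 2.09 against 32.2 ± 1.496 FPKM (-0.29, SE 0.08, adjusted p = 0.0198), a call that was lost without cortex Con 1, cortex Con 3 or hippocampus Con 2 and with no filter (adjusted p = 0.0701). Without hippocampus Con 3, 6 of the 10 genes passed, with *Gclc* (0.23, adjusted p = 0.0411) and *Sod1* (0.30, adjusted p = 0.0333) beside these 4, against 5531 of 13968 genes (39.6%) in that comparison. The names of the value columns end in 1 number in all cortex files and another in all hippocampus files. What that ending stands for is not stated, and it cannot be told apart from the tissue.

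**Figure D4:**
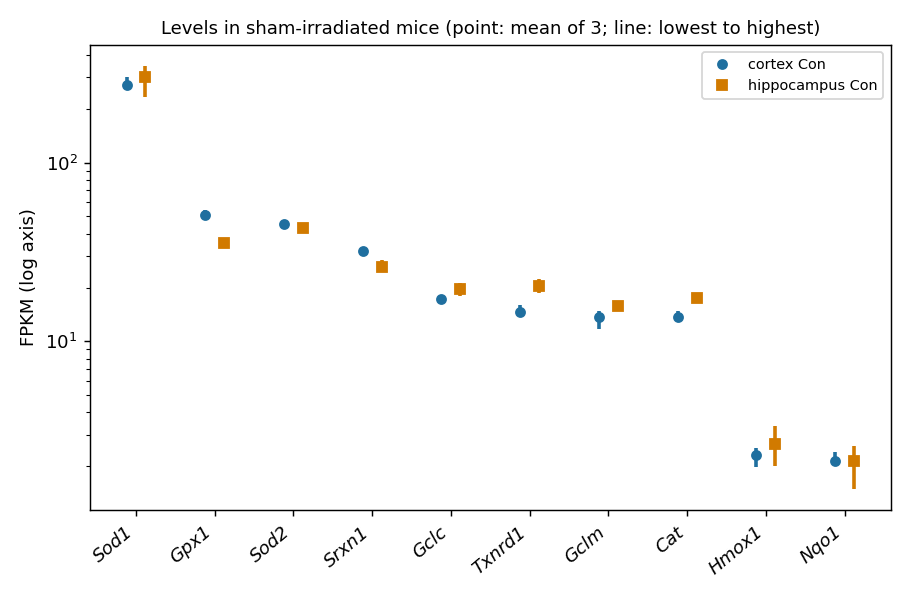
FPKM on a log axis of the 10 genes in Con, ordered by the cortex mean, with cortex as blue circles and hippocampus as orange squares; points are means of 3 libraries and lines run from the lowest to the highest. Gpx1 and Srxn1 lie lower and Txnrd1 and Cat higher in hippocampus than in cortex.

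In cortex Con the order of levels in FPKM was *Sod1* (273), *Gpx1* (51.2), *Sod2* (45.4), *Srxn1* (32.2), *Gclc* (17.3), *Txnrd1* (14.5), *Gclm* (13.8), *Cat* (13.7), *Hmox1* (2.30) and *Nqo1* (2.14). Neighbours whose libraries overlapped were *Txnrd1* with *Gclm*, *Gclm* with *Cat*, and *Hmox1* with *Nqo1*. In hippocampus Con *Sod2* (42.9 FPKM) ranked above *Gpx1* (35.4 FPKM), and *Txnrd1* (20.4 FPKM) above *Gclc* (19.7 FPKM), whose libraries overlapped. In cortex IR *Txnrd1* (17.1 FPKM) also ranked above *Gclc* (15.9 FPKM), the reverse of cortex Con.

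Of the 10 NRF2 regulators tested in each tissue, *Mafg* in the cortex passed and no other did. *Maff* did not reach the filter on low values in either tissue and was not tested. *Nfe2l2*, which encodes NRF2, was 5.17, 4.08 and 5.24 FPKM in cortex Con and 5.54, 4.92 and 4.72 FPKM in cortex IR (log2 fold change 0.06, adjusted p = 0.836). In the hippocampus it was 4.42, 5.68 and 6.05 FPKM in Con and 7.45, 5.24 and 5.35 FPKM in IR (0.13, adjusted p = 0.692). *Keap1* had log2 fold changes of -0.04 (adjusted p = 0.788) and -0.12 (adjusted p = 0.427), and *Bach1* of 0.05 (adjusted p = 0.858) and -0.05 (adjusted p = 0.813), in cortex and hippocampus. NRF2 is controlled mainly through its protein, which these RNA values do not measure.

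*Mafg* encodes a small MAF protein, the partner with which NRF2 and BACH1 bind DNA. In the cortex it was 21.4, 22.7 and 21.5 FPKM in Con and 27.5, 27.3 and 26.9 FPKM in IR, without overlap and with little spread. It rose by a log2 fold change of 0.31 (SE 0.05, adjusted p = 0.0359). The adjusted p was 0.0265 to 0.163 over the alternatives and above 0.05 without Con 1, Con 3 or any IR library. It was 0.0901 with the library number as a block, 0.109 with no filter, 0.0868 without trend or robust prior, 0.0844 in a fit of all 12 libraries and 0.051 with length correction. In the hippocampus *Mafg* was 27.8, 27.5 and 22.6 FPKM in Con and 22.6, 23.6 and 23.0 FPKM in IR (-0.16, adjusted p = 0.434), again with Con 3 beside the IR libraries. The difference between the changes was -0.46 (SE 0.10, adjusted p = 0.159). Without hippocampus Con 3 both passed, at -0.25 in the hippocampus (adjusted p = 0.0484) and -0.56 for the difference between the changes (adjusted p = 0.00686). In those comparisons 880 of 13909 genes (6.33%) and 487 genes passed, so both calls came with many others.

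Beyond the 10 members, 88 genes of redox pathways were listed, and the filter left 81 of them for cortex and 82 for hippocampus. *Mafg* was the single call in the cortex, and in the hippocampus 0 passed in limma at an adjusted p of 0.05. At an unadjusted p under 0.05, 12 of 81 (14.8%) differed in the cortex, 6 in each direction, and 15 of 82 (18.3%) in the hippocampus, 8 with positive and 7 with negative log2 fold changes. These shares stand beside 14.1% and 13.9% of all genes. The median log2 fold change was -0.01 and -0.03.

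By group, the thioredoxin and peroxiredoxin system had 3 of 14 genes below an unadjusted p of 0.05 in the cortex, all with negative log2 fold changes, and 6 of 14 in the hippocampus, 3 in each direction. Heme and iron genes had 1 of 9 in the cortex, negative, and 4 of 9 in the hippocampus, 1 positive and 3 negative. The glutathione system had 1 of 13 in each tissue, negative for cortex and positive for hippocampus. The glutathione S-transferases had 2 of 12 in each, 1 in each direction for cortex and 2 positive for hippocampus. The other NRF2 targets had 3 of 9 in the cortex, all positive, and 0 of 10 in the hippocampus. NADPH supply genes had 0 of 8 for cortex and 1 of 8, positive, for hippocampus, and NADPH oxidase genes 0 of 4 in both. The NRF2 regulators had 2 of 10 for cortex, all positive, and 1 of 10 for hippocampus, negative. *Sod3* and *Ccs*, an extracellular dismutase and the copper chaperone of SOD1, had 0 of 2 in both. Over all tested genes the share was 14.1% for cortex and 13.9% for hippocampus, and no list was tested against it. Leaving out 1 library moved the unadjusted total of all pathway genes to 5 to 13 for cortex and 7 to 27 for hippocampus.

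**Figure D5:**
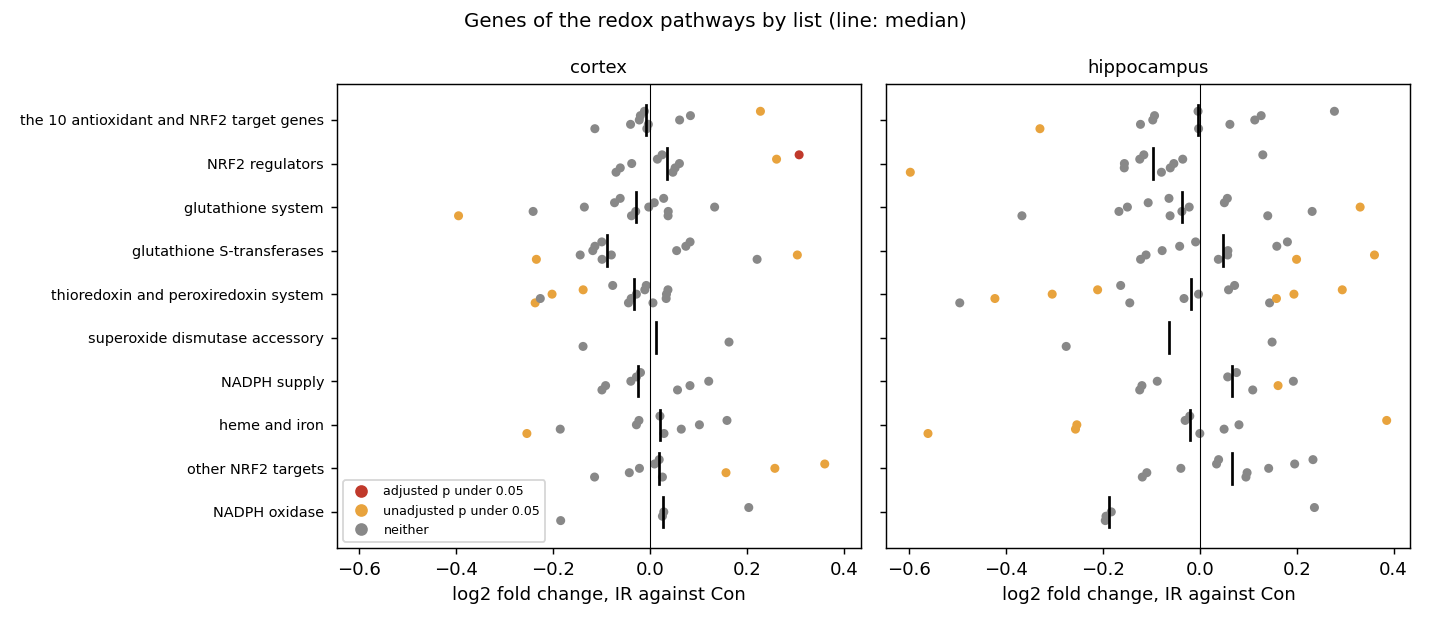
Log2 fold change of IR against Con for every tested redox gene by list, cortex left and hippocampus right; the vertical tick is the median of a list, and colors mark adjusted p under 0.05 (red) and unadjusted p under 0.05 (orange). Mafg (0.31), among the NRF2 regulators in the cortex, is the single red point.

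The other named genes did not pass the correction. *Txn1*, which encodes thioredoxin, the substrate of the *Txnrd1* enzyme, was 59.7, 56.6 and 49.1 FPKM in hippocampus Con and 41.1, 43.1 and 38.2 FPKM in IR, without overlap (log2 fold change -0.42, SE 0.09, unadjusted p = 0.00119, adjusted p = 0.218 from limma). *Tfrc*, the transferrin receptor that takes up iron, was 27.6, 25.1 and 22.7 FPKM in hippocampus Con and 15.7, 19.0 and 15.4 FPKM in IR (-0.56, SE 0.10, adjusted p = 0.214). *Tfrc* was also lower without overlap in the cortex, at 20.3 to 24.6 FPKM in Con and 16.7 to 18.8 FPKM in IR (-0.25, SE 0.08, adjusted p = 0.212), and at -0.17 without cortex Con 1. For both genes Con 3 was the lowest hippocampus Con library, yet it stayed above every IR library.

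*Mafk*, another small MAF, was 6.70, 7.56 and 5.12 FPKM in hippocampus Con and 3.22, 3.64 and 4.95 FPKM in IR (-0.60, SE 0.16, adjusted p = 0.255). Its log2 fold change was -0.39 without hippocampus Con 2 and IR 1, the libraries high in choroid plexus markers. *Sesn2*, a stress-induced gene of the sestrin family, was 4.43, 5.10 and 5.07 FPKM there in Con and 6.20, 5.65 and 6.74 FPKM in IR (0.29, SE 0.09, adjusted p = 0.278). In the cortex *Abcc5*, which encodes an efflux transporter of organic anions, was 38.4 to 39.8 FPKM in Con and 43.8 to 49.5 FPKM in IR (0.26, SE 0.06, adjusted p = 0.0916). *Cbr3*, a carbonyl reductase, was 5.22 to 7.94 FPKM in cortex Con and 7.91 to 9.32 FPKM in IR, which overlapped (0.36, SE 0.12, adjusted p = 0.237). Its log2 fold change was 0.24 to 0.50 when 1 cortex library was left out. In the 5 hippocampus libraries without Con 3, 10 of 82 pathway genes (12.2%) passed an adjusted p of 0.05, beside 6.33% of all genes tested there. Among them were *Txn1* (-0.50), *Tfrc* (-0.63) and *Mafk* (-0.73).

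Among those 10, *Prdx5* and *Gstm1* are named after their values were seen, since they split the libraries as *Sod1* does. *Prdx5*, a peroxiredoxin of mitochondria and peroxisomes, was 339, 313 and 180 FPKM in hippocampus Con and 179, 191 and 197 FPKM in IR. *Gstm1*, a glutathione S-transferase of astrocytes among other cells, was 86.6, 98.1 and 128 FPKM in Con and 135, 134 and 128 FPKM in IR. For both, Con 3 lay at the level of the IR libraries, below Con 1 and Con 2 for *Prdx5* and above them for *Gstm1*.

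The genes whose values followed those of *Txnrd1* most closely over the 6 cortex libraries, after each group's mean was removed, were *Cttnbp2nl* (Pearson r = 0.998), *Foxc1* (0.997) and *Ppp6r3* (0.996), and 73 of 14064 genes had r above 0.95. For *Sod1* over the 6 hippocampus libraries they were *Cacng2* (0.9995), *Ppa1* (0.9991) and *Rsf1* (0.9989), and 409 of 14042 genes had r above 0.95. The 6 points share libraries, depth and tissue pieces, so these values are a description.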

How the data were processed

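RNA from cortex and hippocampus was sequenced in 3 Con and 3 IR libraries per tissue. The authors aligned the reads (TopHat and mm10 are named in the submitters' processing notes) and, per the methods, ran Cufflinks and a geometric normalization; the deposited values are FPKM per gene symbol. The labels name Trizol and total RNA, the methods another kit and poly(A) selection, and which holds is not settled. Counts were not used, so the depth in reads is unknown and no counting interval is given. FPKM of all genes summed to 359773 to 393447 per library, and the median-ratio size factors of the deposited values were 0.995 to 1.02. No pair of libraries was identical. The labels do not say that libraries came from separate mice, so p values measure the spread between these libraries.

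Libraries were grouped by their labels. A gene was tested if 3 or more of a tissue's 6 libraries held 0.5 FPKM or more. The test was run on log2(FPKM + 1) with limma 3.58.1 in R 4.3.3 (variance trend, robust prior), which gave log2 fold changes, standard errors, 95% intervals and p values adjusted by Benjamini-Hochberg over all tested genes. A fold change on this scale understates the change of low genes. All 10 members passed the filter in both tissues. The interaction between irradiation and tissue used 12 libraries. A further comparison was hippocampus against cortex in Con. The steps were tested on simulated data.

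The members and lists were chosen with earlier results of these data known. Named genes were the 10 members, *Nfe2l2*, *Keap1* and *Bach1*, pathway genes with an adjusted p under 0.05 or, where fewer than 4 passed in a tissue, the 4 with the lowest unadjusted p under 0.05, and the 3 genes most like the member with the lowest p. Gene positions and transcript lengths came from GENCODE on GRCm38 (lengths for 22148 symbols, 95.5%), promoters from RefSeq. Plots used matplotlib 3.10.9 (Python 3.11.15).

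Alternatives were no filter, a pseudocount of 0.1, a minimum of 1 FPKM in all libraries, quantile normalization, median-ratio size factors, limma without trend or robust prior, the library number as a block, all 12 libraries in a single fit, the ratio of group means and leaving out each library. A transcript length correction (loess, span 0.3) and leaving out the libraries high in choroid plexus markers were chosen after seeing the data.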

Additional observations from a re-analysis of the deposited data

How the results depend on the processing

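Of 340 values of the 20 member log2 fold changes under the alternatives, 306 kept the sign of the reported value, 9 of the 20 kept it under every alternative run, and 1 had an adjusted p under 0.05 in limma (*Sod1* in the hippocampus without Con 3).

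Among all genes, the cortex calls at an adjusted p under 0.05 (102) were 26 with no filter, 22 without trend or robust prior, 29 without IR 2 and 16 to 78 when 1 library was left out. The hippocampus calls (4) were 12 with no filter, 2 with at least 1 FPKM in every library, 1 with the library number as a block, 74 with all 12 libraries in a single fit, 0 without Con 2 and IR 1, and 0 to 880 when 1 library was left out, with 880 reached without Con 3. The interaction calls (12) were 19 with at least 1 FPKM in every library, 0 without trend or robust prior, 0 with the block, and 0 to 487 when 1 library was left out, with 487 again without hippocampus Con 3. Genes at a fold of 1.5 with an unadjusted p under 0.05 numbered 234 (cortex) and 223 (hippocampus) with a pseudocount of 0.1, and 52 to 217 in the hippocampus when 1 library was left out. Unadjusted calls were 769 in the hippocampus without Con 2 and IR 1, and 1215 to 2108 in the cortex and 1161 to 3613 in the hippocampus when 1 library was left out.

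Members with an unadjusted p under 0.05 (1 in each tissue) were 2 in the cortex with no filter, quantile normalization or length correction. In the hippocampus they were 2 with no filter, 0 without trend or robust prior and 0 without Con 2 and IR 1. The 2 with no filter were *Sod2* (unadjusted p = 0.0075 in limma) and *Cat* (0.0129), and *Sod1* no longer passed (0.12). Leaving out 1 library gave 1 to 2 in the cortex and 0 to 2 in the hippocampus. Members with an adjusted p under 0.05 were 0 to 1 in the hippocampus and 0 to 1 in the interaction when 1 library was left out. The pathway call in the cortex (*Mafg*) became 0 with no filter, without trend or robust prior, with the block (adjusted p = 0.0901), in the fit of 12 libraries, with length correction and without IR 2, and was 0 to 1 when 1 library was left out. In the hippocampus 2 pathway genes passed in the fit of 12 libraries (*Tfrc* and *Txn1*) and 0 to 10 when 1 library was left out. Unadjusted pathway calls were 7 in the cortex without IR 2 and 7 in the hippocampus without Con 2 and IR 1, and 5 to 13 and 7 to 27 when 1 library was left out.

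The signs that turned were of small log2 fold changes. *Gpx1* in the cortex was 0.0124 with length correction and 0.00032 by the ratio of group means, and in the hippocampus 0.0298 with quantile normalization, 0.00436 with size factors, 0.0312 with length correction and 0.00181 without Con 2 and IR 1. *Nqo1* in the cortex was 0.00964 with quantile normalization, 0.00636 with length correction and 0.0197 without IR 2, and between tissues 0.0149 with quantile normalization. *Txnrd1* in the hippocampus was 0.0196 with quantile normalization, 0.00532 with size factors and 0.0201 without Con 2 and IR 1. Without these libraries *Hmox1* in the hippocampus was -0.0710, and without cortex IR 2 *Sod2* was 0.00201 and *Bach1* -0.0237. The causes were not tested.

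When 1 library was left out, these signs also turned. In the cortex *Hmox1* ranged from -0.0120 to 0.113, *Nqo1* from -0.0614 to 0.0509, *Gclm* from -0.0227 to 0.138, *Srxn1* from -0.0322 to 0.0255, *Sod1* from -0.0849 to 0.0392, *Sod2* from -0.0594 to 0.0052, *Cat* from -0.0677 to 0.0315, *Gpx1* from -0.0845 to 0.0603, *Nfe2l2* from -0.0356 to 0.113 and *Bach1* from -0.0237 to 0.0909. In the hippocampus *Hmox1* ranged from -0.0200 to 0.249, *Txnrd1* from -0.0660 to 0.0635, *Gpx1* from -0.0456 to 0.0437 and *Nfe2l2* from -0.0114 to 0.207. Between tissues in Con *Hmox1* ranged from -0.0063 to 0.26 and *Nqo1* from -0.12 to 0.14.

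Whether the library numbers pair the samples cannot be told from correlations over 3 libraries a group. The tests other than the block treated all libraries as independent. Over genes, same-numbered Con and IR libraries correlated at -0.11 to 0.12 in the cortex and -0.41 to -0.08 in the hippocampus after group means were removed. Same-numbered cortex and hippocampus libraries correlated at -0.04 to 0.18 in Con and -0.05 to 0.11 in IR. Number 3 correlated best with its own number in both (0.18 and 0.11), and number 1 in Con did too (0.02), but the others did not. Between cortex Con and cortex IR, number 1 correlated best with its own number (0.121 against at most 0.0637). The labels do not say whether tissues came from the same mice. The block took the interaction calls from 12 to 0 and changed no member's call. The depth in reads is unknown, so what it limits was not tested.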
